A study of Mus musculus with 69 samples.

Results

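Besides CBP and P300, which write H3K27ac, mouse cells hold other families of histone acetyltransferases, and 10 genes of these families were followed here through the mRNA-seq count table. They were taken by name as the rows of Kat2a, Kat2b and Hat1 (the GNAT family), of Kat5, Kat6a, Kat6b, Kat7 and Kat8 (the MYST family), and of Brpf1 and Trrap, which carry no acetyltransferase activity of their own and act as scaffolds of these complexes. All 10 were found among the 16263 genes of the table, and all 10 were among the 14061 genes with enough reads to be tested. The cells were J1 mouse ESCs of the strain background 129S4/SvJae, derived from the inner cell mass, and were grown on feeder cells that were removed by passaging before harvest. WT cells were compared with Mut18 and Mut43, each derived from J1 by CRISPR-Cas9 editing of both alleles of H3f3a and H3f3b, so that all of their histone variant H3.3 carries arginine in place of lysine 27 (H3.3K27R). Each mutant line is 1 clone, and each line has 2 mRNA-seq and 2 ATAC-seq libraries. Differences common to both clones rest on 2 clones and 1 parental line, and p-values reflect the spread between these 6 libraries.

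Histone acetyltransferases move an acetyl group from acetyl-CoA to lysines of the histone tails, which neutralizes their charge. The GNAT enzymes Kat2a (GCN5) and Kat2b (PCAF) are alternative catalytic subunits of the SAGA and ATAC coactivator complexes and are best known for H3K9ac, while Hat1 acetylates newly made histone H4 before it is assembled into chromatin. The MYST enzymes work in separate complexes, Kat5 (TIP60) with EP400, Kat6a (MOZ), Kat6b (MORF) and Kat7 (HBO1) with BRPF or JADE scaffolds on histone H3 or H4, and Kat8 (MOF) in the MSL and NSL complexes on histone H4. The question here is how the transcripts of these enzymes compare between WT cells and cells whose H3.3 can no longer be acetylated at lysine 27.

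To show the DNA in front of the genes on which the results turn, 250 bases before an annotated start are given. Kat7, Kat6b and Kat2b are the members with the 3 largest differences between WT and mutant cells. Hat1 is the most abundant member, and Kat5 did not pass the test. Some genes have several starts, and that printed for Kat6b lies inside the gene. The sequences are RefSeq promoter windows of GRCm38.p6, written from 5′ to 3′ on the strand of the gene, at chr11:95310247-95310496 (minus strand), chr14:21499520-21499769 (plus strand), chr17:53566721-53566970 (plus strand), chr2:71389010-71389259 (plus strand) and chr19:5610095-5610344 (minus strand). Capitals mark matches on either strand to CCAAT (the NFY box), GGGCGG (the SP/KLF GC box), CCGGAAGT (an ETS site) or CACGTG (an E-box), and neighbouring matches may overlap.
Kat7: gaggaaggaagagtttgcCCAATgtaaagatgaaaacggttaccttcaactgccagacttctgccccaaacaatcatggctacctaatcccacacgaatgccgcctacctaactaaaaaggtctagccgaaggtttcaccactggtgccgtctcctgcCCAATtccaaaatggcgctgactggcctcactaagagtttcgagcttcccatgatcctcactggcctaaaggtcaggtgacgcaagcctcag
Kat6b: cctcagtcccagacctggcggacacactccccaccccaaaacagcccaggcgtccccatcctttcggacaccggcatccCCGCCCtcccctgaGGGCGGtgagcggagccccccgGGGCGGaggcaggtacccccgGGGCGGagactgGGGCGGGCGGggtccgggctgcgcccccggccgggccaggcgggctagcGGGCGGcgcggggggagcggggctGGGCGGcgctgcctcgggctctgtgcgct
Kat2b: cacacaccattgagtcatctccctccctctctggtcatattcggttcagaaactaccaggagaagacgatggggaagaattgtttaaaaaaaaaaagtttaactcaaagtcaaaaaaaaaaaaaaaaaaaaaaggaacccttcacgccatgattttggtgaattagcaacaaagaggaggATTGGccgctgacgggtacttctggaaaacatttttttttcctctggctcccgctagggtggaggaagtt
Hat1: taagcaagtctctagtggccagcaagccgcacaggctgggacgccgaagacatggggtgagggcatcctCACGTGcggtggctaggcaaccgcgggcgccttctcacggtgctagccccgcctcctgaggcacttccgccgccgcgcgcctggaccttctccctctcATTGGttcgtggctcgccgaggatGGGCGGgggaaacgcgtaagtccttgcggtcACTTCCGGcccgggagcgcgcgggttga
Kat5: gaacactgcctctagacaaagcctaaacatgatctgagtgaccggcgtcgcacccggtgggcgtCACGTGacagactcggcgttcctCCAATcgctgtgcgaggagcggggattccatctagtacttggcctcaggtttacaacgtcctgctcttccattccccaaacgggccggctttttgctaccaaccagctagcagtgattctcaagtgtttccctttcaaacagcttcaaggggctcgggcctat

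The promoter windows of the members differed widely in composition. Of the 10 genes, 9 had a RefSeq window, with 13 windows in all because some genes have several starts. The windows of Kat6b were the richest in G and C among these. The Kat6b window shown held 78.8% in its 250 bases and 8 matches to GGGCGG. The other Kat6b window, which shares most of these bases, held 79.6%. The median was 52.4% over the 250 bases before all 32817 starts. The Kat2b sequence shown lay at the other end with 40.8%, no match to GGGCGG and 1 match to CCAAT. Kat7 held 2 matches to CCAAT, and Hat1 held 1 match to each of the 4 motifs. Over the members with a window, 6 had a match to GGGCGG (32.7% of all promoter windows), 5 to CCAAT (33.8%), 2 to CACGTG (6.02%) and 1, Hat1, to CCGGAAGT (2.88%). A member was counted if any of its windows matched, whereas the percentages are of single windows, so the counts and percentages differ in unit. No member window matched TATAAA (12.4% of all windows), GCGCATGC (2.25%), AAGATGGCG (0.603%) or TGACGTCA (1.55%), which are letters associated with the TATA box, NRF1, YY1 and CREB. These matches describe the letters of the windows and say nothing of binding.

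Of the 10 genes, 7 had more transcript in H3.3K27R mutant ESCs than in WT ESCs and 3 did not pass the test in either direction. The members that rose were all 3 GNAT enzymes (Kat2a, Kat2b, Hat1), 3 of the 5 MYST enzymes (Kat6a, Kat6b, Kat7) and the scaffold Trrap, by 1.10-fold to 1.39-fold. Kat5, Kat8 and Brpf1 had estimates slightly below WT with intervals that include no difference. No member was called lower, and none had a p-value under 0.05 in that direction before adjustment. No member passed a 2-fold threshold, which 8.93% of all tested genes did. Calls between these lines were common: 48.0% of the 14061 tested genes were called at an adjusted p-value under 0.05, 23.5% higher and 24.5% lower in the mutants. The 7 members called higher are therefore read against 23.5%, and the 0 members called lower against 24.5% (DESeq2 also called 0 lower). The median log2 fold change was 0.33 over the 10 members and -0.0041 over all tested genes. In 7 members, the same that were called, all 4 mutant libraries lay above both WT libraries, as in 29.4% of tested genes, and in no member did all 4 lie below, as in 30.4%.

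**Figure D1:**
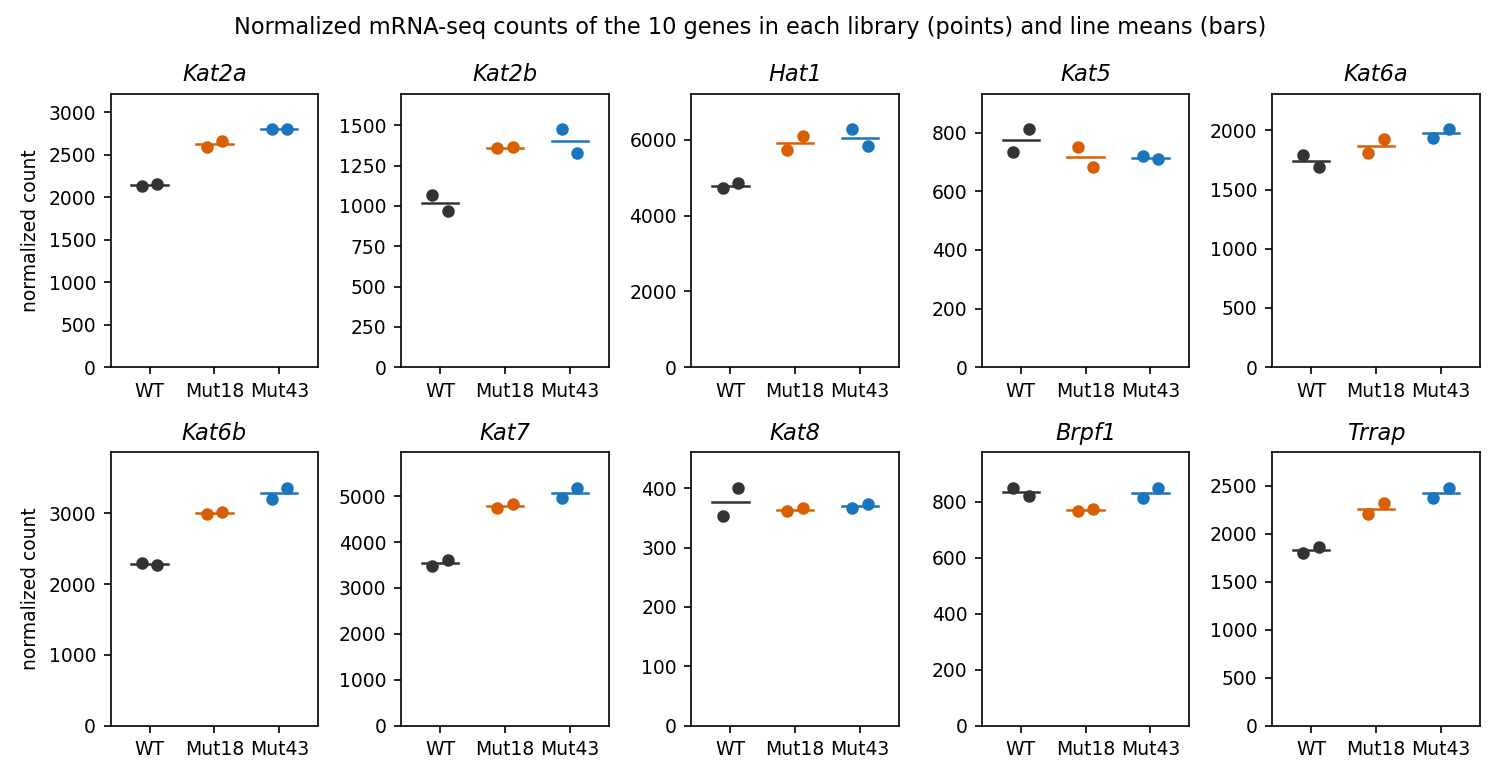
Normalized mRNA-seq counts (vertical axis, from 0) of the 10 genes in each library of WT, Mut18 and Mut43, with points for libraries and bars for the mean of each line. For 7 genes all 4 mutant points lie above both WT points, and for Kat5, Kat8 and Brpf1 they overlap.

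Several facts about the libraries belong beside this count. Depth was almost the same in all of them, from 14992756 to 15143998 counts. Of the 8 ESC markers, 7 were higher in the mutants and Pou5f1 was lower, and their summed normalized counts ranged from 54905 to 56990 in WT and from 62106 to 65580 in the mutants, so the cells carried the markers of their label. The part of this difference in the results was not tested. Of 10 markers of feeder fibroblasts, 8 could be tested, of which 7 were lower in the mutants and none was higher. Their sum ranged from 2942 to 4567 normalized counts in WT and from 1960 to 2578 in the mutants, with Fap at 5.86 or less and Lum at 16.6 or less in every library. In a bulk sample, fewer cells of a type and less RNA per cell cannot be told apart. WT replicate 1 had the highest fibroblast sum, and WT replicate 2, at 2942, also lay above every mutant library. The part of this fibroblast difference in the results for the members was not tested. Of the edited genes, H3f3a stood at 10510 and 10937 normalized counts in the WT libraries against 8436 to 9560 in the mutants (log2 fold change -0.23, SE 0.043, adjusted p = 0.00016). H3f3b differed by 0.03 on the log2 scale (SE 0.05, adjusted p = 0.637), and since a codon was exchanged, neither level checks the edit.

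Chromosome 11 carries Kat7 and Kat2a and stood apart from the other chromosomes with a member, whose median log2 fold changes lay between -0.06 and 0.07. Its 1184 tested genes had a median log2 fold change of 0.39 between WT and mutants, and 67.1% of them were called higher. Outside chromosome 11, 19.5% of tested genes were called higher, and 5 of the 8 members placed there were called higher. The part of this regional difference in the results for Kat7 and Kat2a was not tested.

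The SAGA enzymes rose in both mutant lines. Kat2a, placed at chr11:100704746-100712465 on the minus strand, had normalized counts of 2137 and 2157 in the WT libraries, 2593 and 2660 in those of Mut18, and 2801 in each Mut43 library. The 3 lines did not overlap, with WT lowest and Mut43 highest. The log2 fold change of the mutants was 0.34 (SE 0.044, 95% confidence interval 0.25 to 0.43, adjusted p = 2.41e-06). Against the median of chromosome 11 it was -0.048, so Kat2a stood at the 43.2 percentile of its chromosome and, on that scale, its direction turned.

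Kat2b, the paralog of Kat2a, lies at chr17:53566861-53672720 on the plus strand. The WT libraries held 1065 and 968 normalized counts, those of Mut18 1360 and 1363, and those of Mut43 1476 and 1326. All mutant libraries lay above WT, while Mut18 lay within the range of Mut43. The log2 fold change was 0.44 (SE 0.053, interval 0.33 to 0.55, adjusted p = 8.79e-07), a 1.36-fold difference. The median of chromosome 17 was 0.0027, and Kat2b stood at the 88.5 percentile of the 701 genes tested there.

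Hat1, at chr2:71388958-71441622 on the plus strand, reached 4727 and 4859 normalized counts in the WT libraries. Mut18 had 5740 and 6108, and Mut43 had 6284 and 5844. The mutant lines overlapped each other and both lay above WT, with a log2 fold change of 0.32 (SE 0.042, interval 0.23 to 0.41, adjusted p = 2.47e-06). The genes of chromosome 2 had a median of -0.03, and Hat1 stood at their 87.6 percentile.

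Among the MYST enzymes, Kat7 had the largest log2 fold change of all 10 members. It lies at chr11:95274259-95310246 on the minus strand and was counted at 3482 and 3603 (normalized) in the WT libraries, 4744 and 4829 in those of Mut18, and 4962 and 5183 in those of Mut43. No library of one line fell within the range of another. The log2 fold change was 0.48 (SE 0.043, interval 0.39 to 0.57, adjusted p = 1.58e-08), or 1.39-fold, of which 0.09 remained above the median of chromosome 11. Kat7 stood at the 65.1 percentile of that chromosome.

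The genes whose pattern over the 6 libraries was most like that of Kat7 were Ccdc43, Cbx1 and Larp1, among 11066 candidates. Their root mean square distance from Kat7, on centred log2 normalized counts, was 0.0122, 0.0131 and 0.0145. All of them lie on chromosome 11. Cbx1, which encodes the heterochromatin protein HP1 beta, went from 2539 and 2571 normalized counts in WT to between 3475 and 3795 in the mutants.

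The paralogs Kat6a and Kat6b, both catalytic subunits of BRPF1-bound complexes, had log2 fold changes of different size, compared as a ratio further on. Kat6b, at chr14:21481434-21672478 on the plus strand, gave normalized counts of 2293 and 2274 for WT, 2994 and 3013 for Mut18, and 3199 and 3362 for Mut43. Again the 3 lines did not overlap. The log2 fold change was 0.46 (SE 0.048, interval 0.36 to 0.56, adjusted p = 1.18e-07), and Kat6b stood at the 92.5 percentile of chromosome 14, whose median was -0.06. This was the highest percentile on its own chromosome among the 10 members.

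Kat6a, at chr8:22859535-22943259 on the plus strand, changed least among the members called. Its normalized counts were 1788 and 1692 for WT, 1810 and 1923 for Mut18, and 1939 and 2009 for Mut43, so that the lowest mutant library lay just above the highest WT library. The log2 fold change was 0.14 (SE 0.047, interval 0.04 to 0.24, adjusted p = 0.0169). Without WT replicate 2 it was 0.11 and the call was lost (adjusted p = 0.168). Chromosome 8 had a median of 0.07 with 31.4% of its 754 tested genes called higher, and Kat6a stood at its 63.3 percentile, 0.08 above that median.

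The other MYST enzymes showed no call. Kat8, which makes most H4K16ac, lies at chr7:127912516-127925837 on the plus strand and had normalized counts of 352 and 401 for WT, 361 and 366 for Mut18, and 367 and 373 for Mut43. The mutant libraries lay between the WT libraries, and the log2 fold change was -0.04 (SE 0.075, interval -0.19 to 0.12, adjusted p = 0.71). Kat5, at chr19:5603014-5610237 on the minus strand, had 735 and 812 for WT, 751 and 683 for Mut18, and 718 and 710 for Mut43. Its lines overlapped, and its log2 fold change was -0.11 (SE 0.06, interval -0.24 to 0.01, adjusted p = 0.136). It was -0.18 without WT replicate 1 and -0.03 without WT replicate 2, and that of Kat8 was -0.12 and 0.07, without a call. Changes of up to 0.24 on the log2 scale for Kat5 and 0.19 for Kat8 in the downward direction remain within these intervals. Both genes overlap a gene on the opposite strand (Rnaseh2c for Kat5, Prss8 for Kat8), and since the strand setting of the counting is not given in the sources used here, reads of such partners cannot be told apart. Kat2b, Hat1 and Brpf1 overlap pseudogene or antisense models in the same way, Kat6a and Trrap overlap a model on their own strand, and Kat2b and Kat6b have 1 and 2 pseudogenes named after them.

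The scaffolds parted ways. Trrap, the pseudokinase shared by SAGA and TIP60-EP400, lies at chr5:144767732-144859778 on the plus strand and had normalized counts of 1802 and 1865 for WT, 2207 and 2314 for Mut18, and 2369 and 2478 for Mut43. The lines followed each other without overlap, with a log2 fold change of 0.35 (SE 0.048, interval 0.25 to 0.45, adjusted p = 3.64e-06) and a median of 0.0034 for chromosome 5. Brpf1, which holds Kat6a, Kat6b or Kat7 on chromatin, lies at chr6:113307137-113324860 on the plus strand and had 850 and 819 for WT, 768 and 775 for Mut18, and 812 and 849 for Mut43. Mut18 was below WT and Mut43 overlapped it, and the log2 fold change of the mutants was -0.06 (SE 0.057, interval -0.18 to 0.06, adjusted p = 0.407). It was -0.03 without WT replicate 1, -0.08 without WT replicate 2, -0.04 without Mut18 replicate 1 and -0.088 without Mut43 replicate 2.

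**Figure D2:**
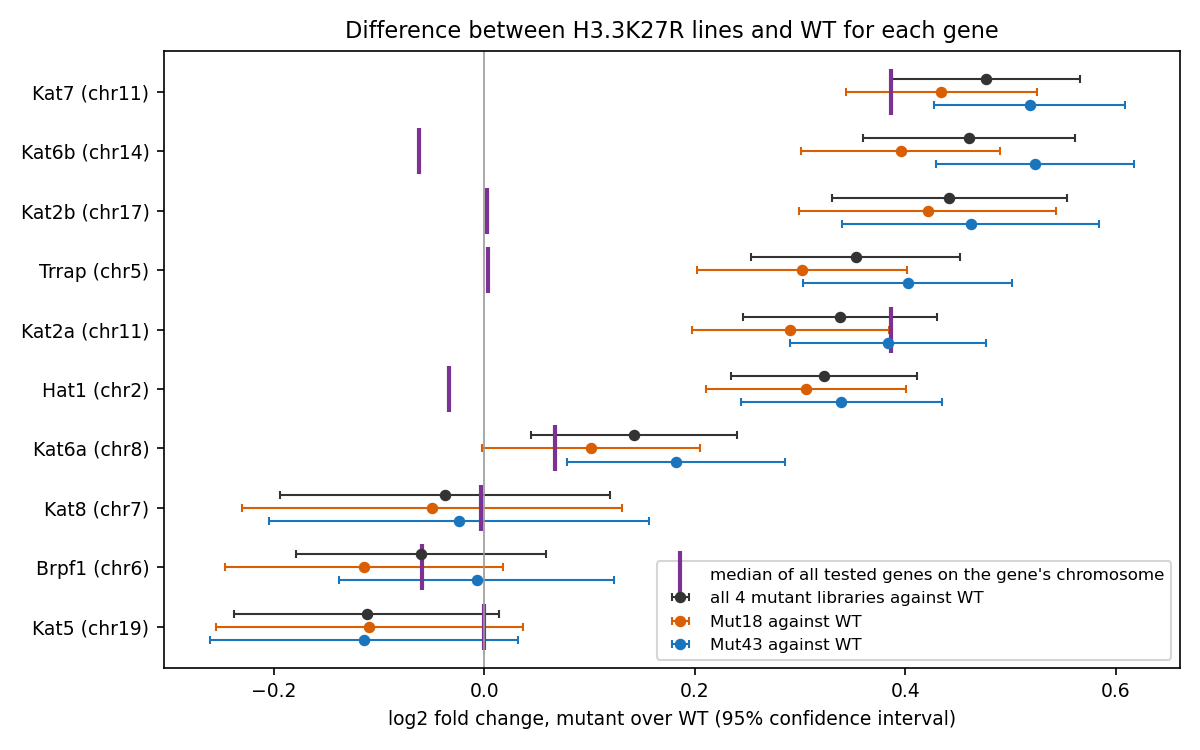
Log2 fold changes with 95% confidence intervals (horizontal axis) of the 10 genes for all mutant libraries, Mut18 and Mut43 against WT, with vertical bars at the median of all tested genes on the same chromosome. Kat6b, Kat2b, Trrap and Hat1 lie far to the right of their chromosome's bar, whereas Kat7 and Kat2a lie close to the chromosome 11 bar at 0.39.

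Each clone was then compared with WT on its own. These comparisons share the WT libraries, so their similarity is no independent repeat. In Mut18, 6 members were called, all higher, where 41.3% of tested genes were called, 20.3% higher and 21.0% lower. In Mut43, 7 members were called, all higher, where 46.8% were called, 22.9% higher and 23.9% lower. The member called in Mut43 alone was Kat6a, with a log2 fold change of 0.10 in Mut18 (SE 0.051, adjusted p = 0.113, and 0.06 without Mut18 replicate 2) and 0.18 in Mut43 (SE 0.05, adjusted p = 0.00416), while the clones themselves differed by -0.08 for this gene (adjusted p = 0.716). In Mut43 the call of Kat6a was lost without WT replicate 2 (adjusted p = 0.0569) or without Mut43 replicate 2 (adjusted p = 0.0597). The median over members was 0.30 in Mut18 and 0.36 in Mut43.

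Tested against each other, the clones did not differ in any of the 10 genes after adjustment, where 0.327% of tested genes (46) did, and DESeq2 called 0 members as well. Before adjustment, edgeR's test gave a p-value under 0.05 for 3 members, each lower in Mut18. For Kat6b the log2 difference of Mut18 from Mut43 was -0.13 (interval -0.22 to -0.04, unadjusted p = 0.00865, adjusted p = 0.353). Those of Trrap and Kat2a were -0.10 (adjusted p = 0.567) and -0.09 (adjusted p = 0.583). For the other 7, the intervals reached no further than -0.24 and 0.16.

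To compare paralogs, and enzymes with a scaffold of their complex, the ratio of their counts was taken within each library for some pairs. Each pair of enzyme and scaffold set a called gene against an uncalled gene. Other such pairs, for example Kat2a with Trrap, were not taken, so the ratios do not describe enzymes and scaffolds in general. The scaling between libraries drops out of such a ratio. The ratio of Kat6b to Kat6a was 1.28 and 1.34 for WT, 1.65 and 1.57 for Mut18, and 1.65 and 1.67 for Mut43. All mutant libraries lay above WT, with a log2 difference of 0.32. The ratio of Brpf1 to Kat6a was 0.476 and 0.484 for WT and between 0.403 and 0.424 for the mutants, all of them below WT.

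The ratio of Kat5 to Trrap was 0.408 and 0.435 in WT and between 0.287 and 0.34 in the mutants, a log2 difference of -0.46. All these ratios rest on the same counts as the tests of single genes, so they are no independent result. The ratio of Kat2b to Kat2a overlapped between WT (0.498 and 0.449) and mutants (0.474 to 0.527), with a log2 difference of 0.11. In a two-sided exact permutation test over the 15 arrangements of 6 libraries, the first 3 ratios gave p = 0.0667 (0.0889 adjusted over the 4 ratios), the smallest p-value this design allows, and Kat2b to Kat2a gave p = 0.2 (adjusted 0.2).

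**Figure D3:**
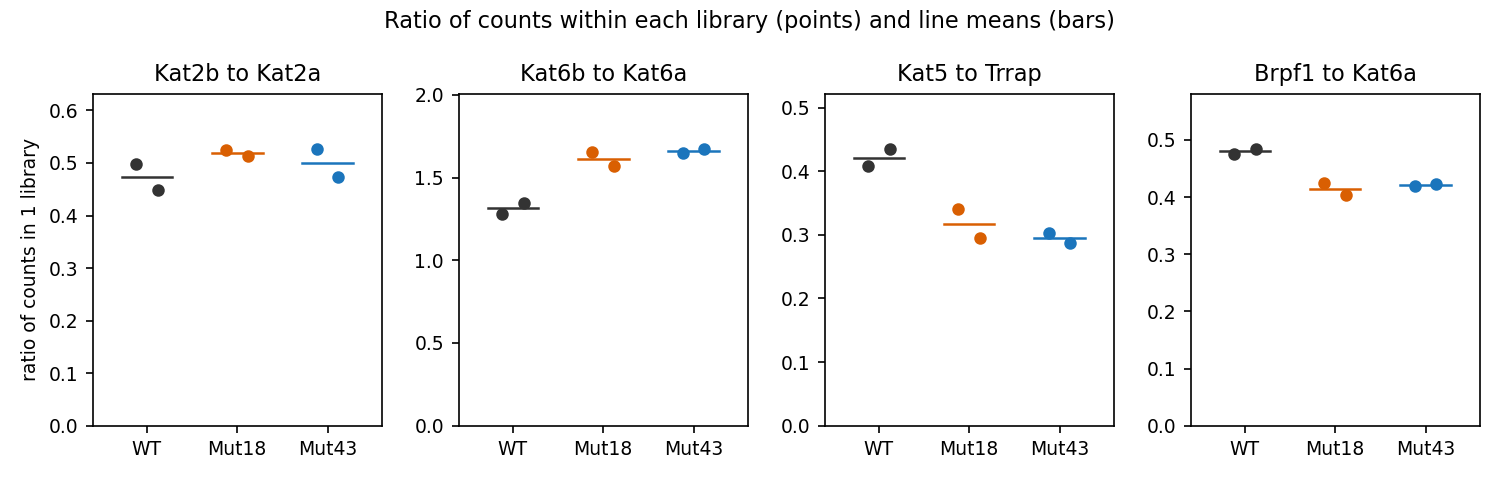
Ratios of counts within each library (vertical axes, from 0) for 4 pairs of genes, with points for libraries and bars for line means. Kat6b to Kat6a is higher in all 4 mutant libraries, Kat5 to Trrap and Brpf1 to Kat6a are lower, and Kat2b to Kat2a overlaps.

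Levels were compared between genes per kilobase of the longest coding transcript of each. In WT, Hat1 led with 2524 normalized counts per kb (97.3 percentile of tested genes), followed by Kat7 with 995 and Kat2a with 705. Below them came Kat5 (359), Kat6b (297), Kat8 (239) and Kat2b (219), and then Kat6a (191), Brpf1 (173) and Trrap (147, at the 58.6 percentile). All members thus lay in the upper part of the tested genes. The WT replicates of Kat8 and Kat2b overlapped, and those of all other neighbours did not. In both mutant lines Kat6b stood above Kat5 (390 against 333 in Mut18, 426 against 332 in Mut43), Kat2b above Kat8 and Trrap above Brpf1. These places depend on the length chosen. Per kb of all annotated exons, Kat5 stayed above Kat6b in every line (220 against 136 in WT, 204 against 179 in Mut18, 204 against 195 in Mut43). On that scale the line means of Kat2b lay above those of Kat8, and those of Brpf1 above those of Trrap, in WT and in both mutant lines alike.

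**Figure D4:**
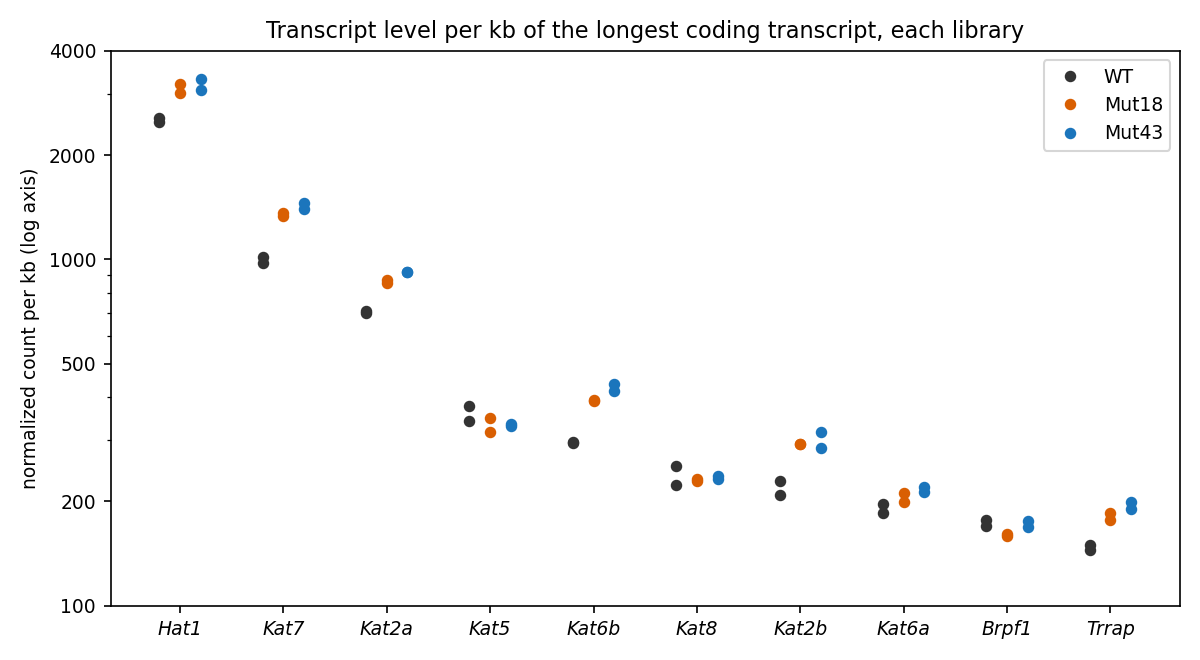
Normalized counts per kb of the longest coding transcript (log axis) for the 10 genes in each library, ordered by the WT mean. Hat1 leads in every library, and by this length Kat6b lies below Kat5 in WT and above it in both mutant lines, while Kat2b and Kat8 overlap in WT.

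Open chromatin at these genes was described from the ATAC-seq peak lists, which give 63588 to 78536 peaks per library. A peak lay within 500 bp of an annotated coding start in every library for 9 of the 10 members, against 80.5% of the 15211 genes with such a start. The exception was Kat2b, with no peak in that window in any library, although its transcript rose. Its nearest peaks lay inside the gene, and at least 1 was present in each library. The nearest began 713 and 784 bp after the first start in the WT libraries and 778 bp after it in Mut18 replicate 2. In Mut18 replicate 1 and both Mut43 libraries it began 1301 to 1307 bp after that start. This difference was not tested. Of the promoter windows printed above, that of Kat2b was not overlapped by a peak in any library. The printed Kat6b window held no peak either, since the nearest peak began after that start, at 21499917 or further on chromosome 14. Kat6b has 5 coding starts, however. A region at chr14:21481248-21481504, its middle 58 bp from another of them, held a peak in all 6 libraries. The windows of Kat7, Hat1 and Kat5 were overlapped over at least 212 of their 250 bases in every library.

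Fold enrichment of a peak over its local background, as the authors deposited it, ranged over similar values in WT and mutants. For Kat7 it was 5.32 and 6.46 in WT and 5.61 to 5.95 in the mutants, and for Hat1 it was 8.81 and 10.3 in WT and 8.81 to 12.1 in the mutants. For Kat6b it was 5.98 and 6.71 in WT and 6.64 to 7.47 in the mutants. In each of these the ranges overlapped. Within the lists, the Hat1 peak stood at the 67.7 to 91.2 percentile of fold enrichment and the Kat2a peak at the 9.20 to 15.3 percentile. Such values describe each list and were not tested between lines, as the lists carry no read numbers.

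**Figure D5:**
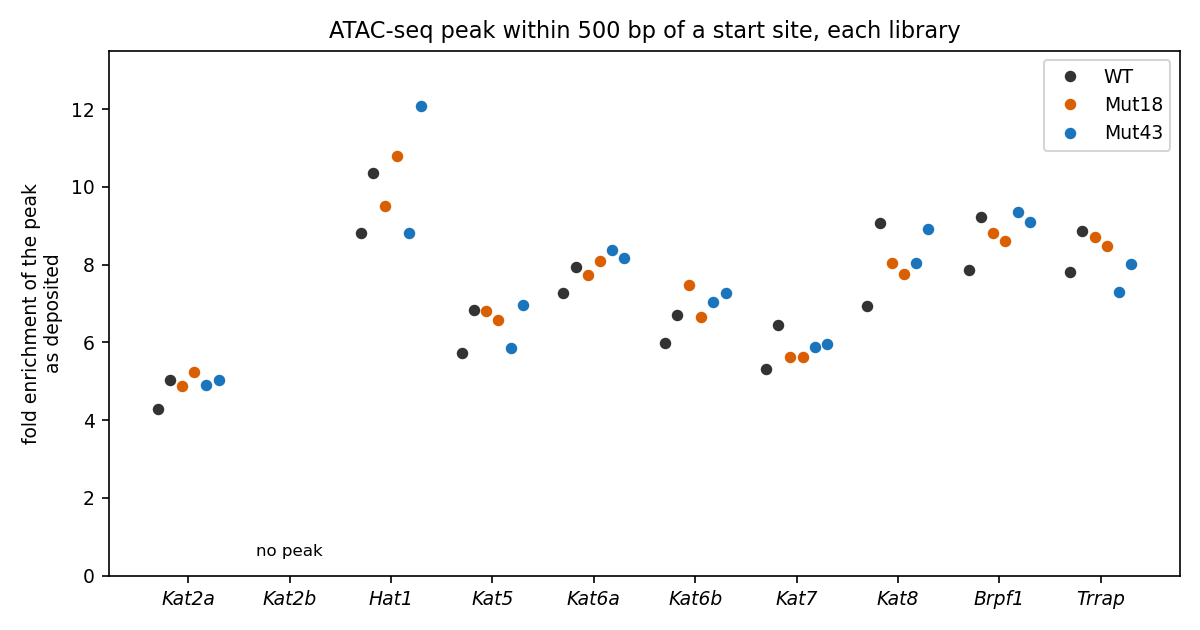
Deposited fold enrichment (vertical axis, from 0) of the strongest ATAC-seq peak within 500 bp of a coding start of each gene, with 1 point per library. Hat1 ranges from 8.81 to 12.1, overlapping Brpf1, Kat8 and Trrap, Kat2a has the lowest values, Kat2b has no peak there, and WT and mutant points overlap for the 9 others.

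Within the 10 genes and 10 kb on each side, the 6 lists merged into 68 regions, of which 39 (57.4%) held a peak in all libraries, against 54.7% of the 89596 regions of the genome. Only 1 region held a peak in both WT libraries and in no mutant library, chr17:53597245-53597570 within Kat2b, while 3.25% of all regions did so. None held a peak in all 4 mutant libraries alone, where 0.733% of all regions did. Kat6b had the most regions, 15 of them with 9 in all libraries, and Hat1 and Kat5 the fewest, 3 each with 2 in all libraries.

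The members act with other proteins, and 104 genes of their complexes and of acetyl-lysine metabolism were listed by function. Of these, 36 (34.6%) were called higher in the mutants and 18 (17.3%) lower, and 50 were not called, which may be read against the same 23.5% and 24.5% of all tested genes. Of the 10 on chromosome 11, 8 were higher and 1, Jade2, was lower, and of the 94 elsewhere 28 were higher and 17 lower. Only Acss1 passed 2-fold.

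The partners of Kat6a, Kat6b and Kat7 had 6 of 8 genes called higher and 1 lower. Jade3, a scaffold of the Kat7 complex, rose by a log2 fold change of 0.48 (SE 0.052, adjusted p = 1.93e-07), and Brd1, the BRPF2 scaffold, by 0.23 (SE 0.049, adjusted p = 0.000501). Jade2 had a log2 fold change of -0.21 (adjusted p = 0.00888). Jade2 was chosen after its values were seen.

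Partners of Kat5 in TIP60-EP400 had 5 of 15 genes called higher (33.3%), and the other 10 were not called. Of all tested genes, 23.5% were called higher and 24.5% lower. The ATPase Ep400 rose by 0.30 on the log2 scale (SE 0.042, adjusted p = 5.52e-06) and the helicase Ruvbl2 by 0.22 (SE 0.044, adjusted p = 0.000309).

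SAGA subunits moved in both directions, 7 of 19 higher (36.8%) and 4 lower (21.1%), beside 23.5% and 24.5% of all tested genes. The subunits Tada1 and Supt3, both of the core module, had log2 fold changes of -0.53 (SE 0.088, adjusted p = 5.23e-05) and -0.41 (SE 0.14, adjusted p = 0.0162). Tada1 went from 273 and 262 normalized counts in WT to between 177 and 201 in the mutants. The ATAC complex had 2 of 9 higher and 2 lower, 22.2% each way and close to all genes. Its adaptor Tada2a, on chromosome 11, rose by 0.53 (SE 0.046, adjusted p = 1.05e-08), and the histone-fold subunit Pole4 by 0.25 (SE 0.049, adjusted p = 0.000237).

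Of the MSL and NSL subunits around Kat8, 2 of 10 were higher and 1 lower. Msl3, the chromodomain subunit of MSL, had 213 and 204 normalized counts in WT and 126 to 164 in the mutants (log2 fold change -0.46, SE 0.11, adjusted p = 0.00159), and Kansl1, the NSL scaffold on chromosome 11, rose by 0.31 (SE 0.047, adjusted p = 1.78e-05). Of the histone chaperones and carriers around Hat1, 1 of 6 was higher (16.7%) and 3 were lower (50.0%), beside the same shares of all genes. The H3-H4 chaperones Asf1b and Asf1a moved in opposite directions, by 0.41 (SE 0.05, adjusted p = 9.02e-07) and -0.35 (SE 0.053, adjusted p = 1.75e-05).

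Among other acetyltransferases, including Crebbp and Ep300, 6 of 12 were higher (50.0%), and the other 6 were not called. Of all tested genes, 23.5% were called higher and 24.5% lower. The coactivator Ncoa1 rose by 0.41 (SE 0.079, adjusted p = 0.000198) and Cdyl by 0.37 (SE 0.045, adjusted p = 1.12e-06). Crebbp and Ep300, named for their role in H3K27ac after their values were seen, had log2 fold changes of 0.09 (adjusted p = 0.267) and -0.08 (adjusted p = 0.108).

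The list of histone deacetylases, sirtuins included, had 5 of 18 genes higher and 5 lower, 27.8% each way and close to all genes. Hdac8 had 117 and 129 normalized counts in WT and 58.9 to 74.8 in the mutants, a log2 fold change of -0.89 (SE 0.14, adjusted p = 3.31e-05), and Sirt5, a mitochondrial deacylase, rose by 0.83 (SE 0.19, adjusted p = 0.00151) at 37.1 to 82.4 normalized counts. Of 7 genes that supply acetyl-CoA, 2 were higher and 2 lower, 28.6% each way, beside 23.5% and 24.5% of all tested genes. Acss1, the mitochondrial acetyl-CoA synthetase, rose from 117 and 118 normalized counts in WT to between 218 and 270 in the mutants (log2 fold change 1.11, SE 0.11, adjusted p = 5.47e-08). Acly, which makes acetyl-CoA from citrate and lies on chromosome 11, rose by 0.51 (SE 0.037, adjusted p = 8.32e-10).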

How the data were processed

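mRNA-seq and ATAC-seq were each measured in 2 libraries of WT, Mut18 and Mut43, and samples were grouped by their titles. The authors deposited raw counts of reads for each gene, not normalized, on mm10 joined to dm6. The submitters' processing notes name STAR, SAMtools and DESeq2, and for ATAC-seq Bowtie2 2.3.4.2, SAMtools, deepTools 3.3.0 and MACS2, while the counting program is not given in the sources used here. The authors deposited ATAC-seq peaks per library, not pooled, with fold enrichment over background (a ratio) and -log10 q-values, which start at 6. The 16263 gene symbols were placed on GRCm38 with GENCODE vM21, 15644 directly, 476 by an older symbol and 143 not at all. The study's ChIP-seq samples are not analysed here.

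The counts went into edgeR 4.0.16 (R 4.3.3), with its expression filter at a minimum count of 10 and a minimum total of 15 and with TMM scaling. Its quasi-likelihood test set 2 WT against 4 mutant libraries, or used 3 groups for each clone. P-values were adjusted by the Benjamini-Hochberg method over all 14061 genes and called under 0.05. A normalized count is the count divided by its effective library size times the mean of these sizes. Libraries held 14992756 to 15143998 counts, and each WT level rests on 2 libraries. Fits were tested on simulated data. Peaks were compared with annotated coding starts (window 500 bp) and merged at an overlap of 1 bp, in Python 3.11.15 with pandas 2.3.3.

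The 10 members were all described. From each partner list, the 2 called genes of largest change were named if their mean normalized count reached 50, with the 3 genes most like the called member of largest change. The members and lists were chosen with earlier results of these data known. Alternatives were DESeq2 1.42.0, other normalizations, filters, thresholds and windows, a replicate block and each library left out.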

Additional observations from a re-analysis of the deposited data

How the results depend on the processing

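The number of members called between WT and mutants was 7 with DESeq2, with the 2 other normalizations, with TMM factors from genes outside chromosome 11, without a filter on low counts, at a minimum count of 50 and in the 3-group fit, and 6 at an adjusted p under 0.01. Leaving out each library in turn gave 6 to 7 members for all mutants, 6 for Mut18, 6 to 7 for Mut43, 0 between the clones, 43 to 54 of the 104 partner genes, and 9 members with a peak near a start. Partner genes called numbered 45 with DESeq2 and 53 to 57 with the other alternatives. Windows of 250 and 1000 bp, or only peaks with a -log10 q of at least 10, also gave 9 members. After the median of its chromosome was taken away, the log2 fold change of Kat2a turned to -0.048, while Kat7 kept 0.09 and Kat6a 0.08. The call of Kat6a was lost without WT replicate 2, at 0.11 for all mutants and 0.15 for Mut43, and, for Mut43, at 0.16 without replicate 2 of that line. Kat8 ranged from -0.12 to 0.07, changing sign without WT replicate 2, and was never called. DESeq2 called fewer genes in all, 3537 against 5806 for Mut18 and 4297 against 6581 for Mut43, and the cause was not tested.

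With the replicate number as a block, 7 members, 6 in Mut18 and 7 in Mut43 were called, and 53 partner genes. Deviations of libraries with the same number correlated at -0.05 to 0.0032, so the numbers were not taken to pair the samples. The sizes of the uncalled changes are loose: leaving out 1 library moved the log2 fold change between -0.18 and -0.03 for Kat5 and between -0.088 and -0.03 for Brpf1, and between 0.057 and 0.14 for Kat6a in Mut18. Counting error and the 2 WT libraries both enter these estimates, and their shares were not compared.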
